A study of Drosophila melanogaster with 6 samples.

Results

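The Imd and Toll pathways are the 2 NF-κB cascades with which Drosophila detects bacteria and fungi, and both end in the transcription of antimicrobial peptide genes. ChIP-seq peaks of the Condensin II subunit CAP-D3 were examined at 44 genes of these pathways, chosen by name, out of 17684 annotated genes on 2L, 2R, 3L, 3R, 4 and X, of which 13922 are protein-coding. The list comprises 17 genes for recognition proteins and receptors, 14 for signaling proteins and 13 for peptides, and all 44 were found in the Release 6 plus ISO1 MT annotation. ChIP-seq recovers the DNA associated with a protein with an antibody and sequences it. The series has 6 samples of chromatin digested with micrococcal nuclease from cultured Drosophila cells, which the labels name S2R+ cells of embryonic origin and Oregon R strain, and the labels name no immune challenge for any of them. The paper's methods name S2 cells of the stock S2-DRSC instead, so the cell line is not settled. CAP-D3 ChIP with antibody YZ384, IgG ChIP with normal rabbit IgG, which recognizes no particular chromatin protein, and input chromatin without antibody are labelled as 2 samples each. The authors called peaks against input with MACS and deposited 1 list per antibody, with 22108 CAP-D3 peaks and 3915 IgG peaks. Each peak has a MACS score, which is −log10 of a p-value or q-value against input, and the sources used here do not name which. Most of these peaks have a score below 10, and 9254 CAP-D3 peaks and 779 IgG peaks reach it. The study counted binding sites at a stricter probability than that of the full lists, and the counts below use every deposited peak unless a score is given. A list per antibody leaves no replicates to compare, so the values below carry no error between experiments, no test between conditions was possible, and how deeply each library was sequenced is not known.

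In the Imd pathway, peptidoglycan recognition proteins (PGRPs) bind bacterial cell wall fragments and act through the adaptor Imd, FADD and the caspase DREDD, and through the kinase TAK1 with TAB2 and the IKK subunit Kenny (key), to activate the NF-κB factor Relish (Rel). In the Toll pathway, the processed ligand Spätzle (spz) binds Toll (Tl), and Myd88, Tube and Pelle (pll) bring about the loss of the inhibitor Cactus (cact), which frees the NF-κB factors Dorsal (dl) and Dif. Both cascades induce small secreted peptides that damage bacteria or fungi.

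A member was counted as having a peak when a deposited peak overlapped its annotated span, or the 1000 bp on either side of it, by at least 1 bp. CAP-D3 peaks were found at 28 of the 44 members (63.6%, 95% Wilson interval 48.9 to 76.2%, which covers counting error only), and 16 members had none. Of all protein-coding genes, 60.9% had a CAP-D3 peak by the same rule. Gene length sets how many peaks a window can hold, so each member was also set beside the protein-coding genes whose span was within 20% of its own, 60 to 2397 genes per member. The mean share of these genes with a CAP-D3 peak was 56.8%, which lies within the interval of the members. The interval is wide and treats neighboring genes as independent. As a group, the members were therefore not set apart from genes of their length, and a moderate difference cannot be told from none. The 28 members with a peak had a median span of 4219.5 bp and the 16 without had a median span of 914 bp. Together the members held 53 different CAP-D3 peaks. Averaged over all 44 members, with the peak that lies at both AttA and Dro counted for each, this was 1.23 peaks per member, against 1.41 per gene of similar length.

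A deeper library gives higher scores for the same enrichment. At the members, the CAP-D3 scores ranged from 3.02 to 21.05 with a median of 8.2, whereas the median of the whole CAP-D3 list was 9.16. A score of at least 10 was reached by 16 of the 53 peaks (30.2%) and by 41.9% of the whole list. These 16 peaks lay at 14 members (31.8%, 95% Wilson interval reaching up to 46.6%), and the share was 33.7% among genes of similar length and 36.8% among all protein-coding genes. A score of at least 20 was reached at 1 member, PGRP-LB, and at 3.01% of all protein-coding genes.

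IgG peaks were found at 3 of the 44 members (6.82%, 2.35 to 18.2%), against 14.7% of genes of similar length and 15.9% of all protein-coding genes. All 3 members were among the 6 Toll receptor genes (50.0%, 18.8 to 81.2%), and 27.7% of genes of the length of Toll receptor genes had an IgG peak. None of the 3 IgG peaks reached a score of 10, a score found at 4.02% of all protein-coding genes. No signaling gene and no peptide gene had an IgG peak, against 19.4% and 5.66% of genes of their length. Each of the 3 IgG peaks overlapped a CAP-D3 peak, so that 3 of the 53 CAP-D3 peaks overlapped an IgG peak. Over the whole CAP-D3 list this share was 13.9%.

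**Figure D1:**
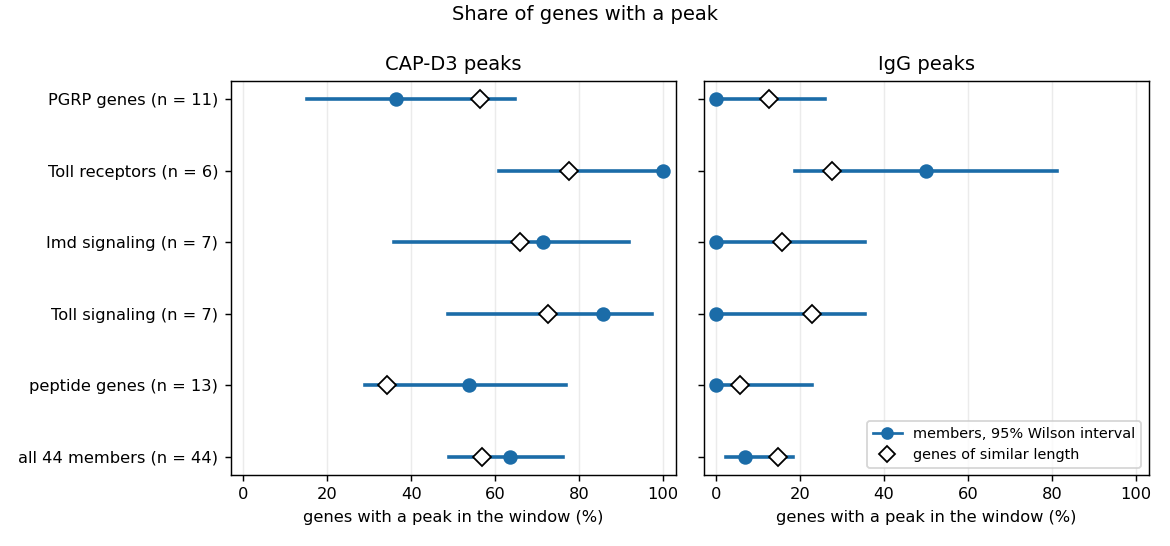
Share of genes with a peak in the window (x axis, percent) for 5 subgroups and for all 44 members, with CAP-D3 peaks at left and IgG peaks at right. Filled points are members with 95% Wilson intervals (bars), and open diamonds are the mean share among genes of similar length. Every diamond lies within the interval of its group, and IgG peaks were found at Toll receptor genes only (3 of 6).

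The 3 classes held peaks in the order signaling genes, receptors, peptide genes, which is also the order of the shares among genes of their length. Of the signaling genes, 11 of 14 had a CAP-D3 peak (78.6%, 52.4 to 92.4%), against 69.3% of genes of similar length. Of the recognition proteins and receptors, 10 of 17 had one (58.8%, 36.0 to 78.4%), against 63.8%. Of the peptide genes, 7 of 13 had one (53.8%, 29.1 to 76.8%), against 34.2%. The peptide genes are short, with a median span of 496 bp, and most of their windows is margin. With the margin left out, 3 of the 13 peptide genes had a CAP-D3 peak, against 11.5% of genes of similar length counted in the same way. The intervals of the 3 classes overlap, and each includes the share of genes of similar length.

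In all, 18 of the 28 members had a CAP-D3 peak inside their own span, and 10 had peaks in the margin only. Of the 16 peaks outside the span of a member, 13 lay in the span of another gene. A peak in such a place is a value of the locus and cannot be assigned to the member by position. Strand, transcript starts and exons were not used here, so whether a peak is exonic, intronic or at a promoter is not given. Positions below are those of the deposited lists, counted from 1, and the sources used here do not name their genome build.

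**Figure D2:**
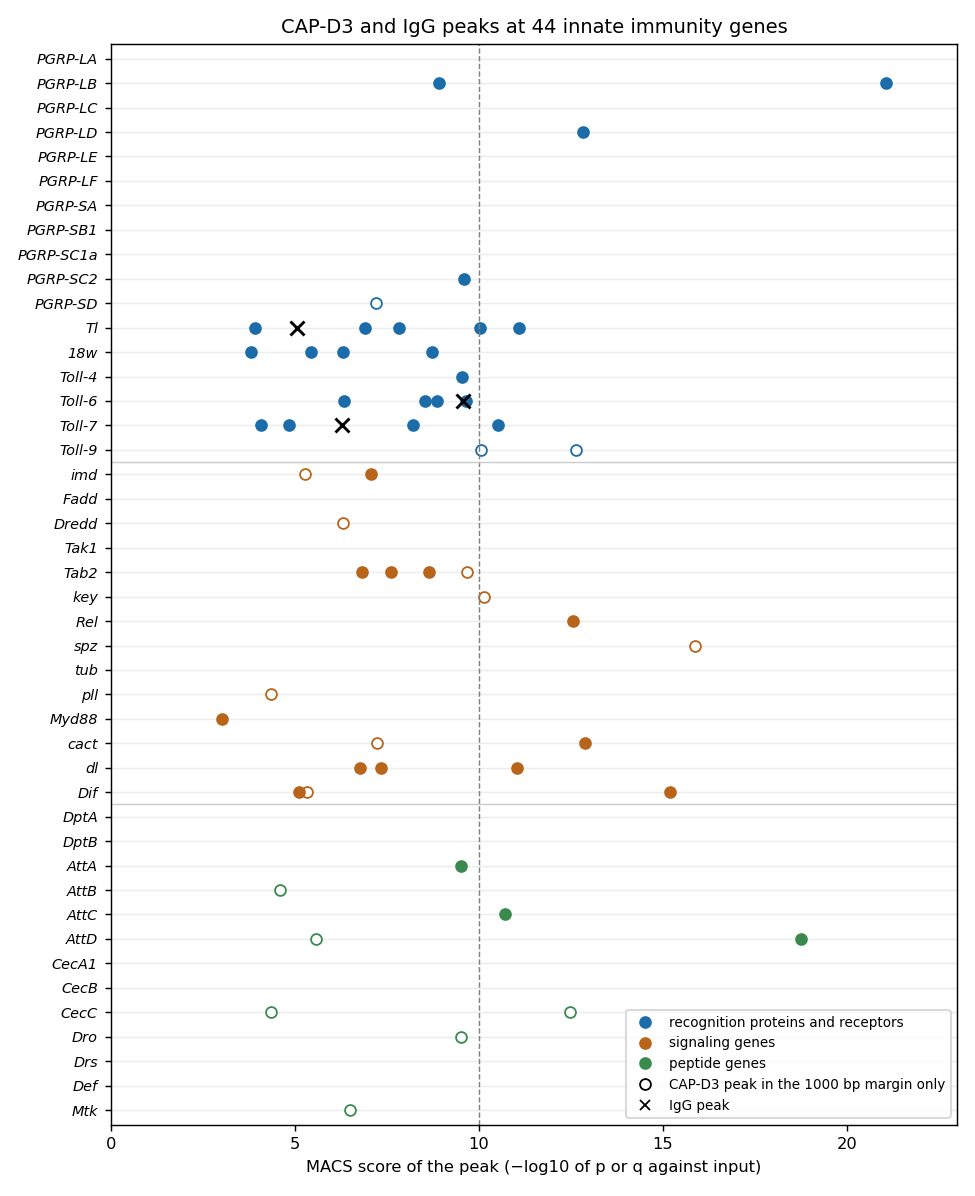
MACS score (x axis, −log10 of p or q against input) of every CAP-D3 peak (circles) and IgG peak (crosses) at each of the 44 members (y axis). Filled circles are peaks that overlap the gene span, open circles lie in the 1000 bp margin only, and the dashed line marks a score of 10. The highest score is 21.05 at PGRP-LB, rows without a symbol are the 16 members with no peak, and crosses stand at Tl, Toll-6 and Toll-7.

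Among the 11 PGRP genes, 4 had a CAP-D3 peak and none an IgG peak. Of genes of similar length, 56.3% had a CAP-D3 peak and 12.5% an IgG peak. PGRP-LB encodes an amidase that cleaves peptidoglycan and limits the Imd response. It held the highest-scoring CAP-D3 peak of all members, MACS peak 15938 (3R:11453043-11453298, score 21.05), and a second one 353 bp further on, MACS peak 15939 (3R:11453652-11453920, score 8.93). Of the CAP-D3 list, 1.68% had a higher score than MACS peak 15938. Of the 817 genes with a span similar to PGRP-LB, 2.08% had a peak with a score at least as high. The peak is described because it is the highest of 53, and the highest of so many has a low share by that choice. Both peaks of PGRP-LB also lie in the span of the overlapping gene CG17230, so that the 2 genes cannot be told apart. PGRP-LD had 1 peak (3L:5784017-5784552, score 12.82), which lies in the spans of Pmi and Cralbp as well. PGRP-SC2, another amidase gene, had 1 peak inside its span with a score of 9.61. PGRP-SD, whose product takes part in sensing bacteria in the hemolymph, had 1 peak with a score of 7.22, which lay 729 bp outside its span in CG32373 and CG7492.

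The Imd receptor gene PGRP-LC and its neighbors PGRP-LA and PGRP-LF had no CAP-D3 peak. PGRP-LC encodes the main transmembrane receptor of the pathway, and PGRP-LF a related protein that restrains it. The 3 genes lie together in a stretch of 41529 bp of 3L without any CAP-D3 peak (3L:9328182-9369710). Of the 4866 gaps between neighboring CAP-D3 peaks on 3L, 63 were at least as long, and the median gap was 2187 bp. Gaps of this length or longer held 131 of the 2739 protein-coding genes of 3L (4.78%). The IgG list had no peak over a longer stretch around these genes, 285028 bp. Among genes with a span similar to PGRP-LC, 77.4% had a CAP-D3 peak, and for PGRP-LA and PGRP-LF the shares were 71.4% and 57.4%. These 3 genes share 1 locus and are not independent observations.

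The remaining PGRP genes without a peak were PGRP-SB1, PGRP-SC1a, PGRP-LE and PGRP-SA. PGRP-SB1 and PGRP-SC1a were close to the limit of the window. Their nearest CAP-D3 peaks lay 1424 and 1827 bp from their spans, with scores of 6.34 and 8.34. A CAP-D3 peak with a score of 20.24 lay somewhat further out, on the other side of PGRP-SB1. PGRP-LE, an intracellular sensor of the Imd pathway, and PGRP-SA, which recognizes Gram-positive bacteria upstream of Toll, lie on X. There the nearest CAP-D3 peaks were 13195 and 51392 bp away.

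All 6 Toll receptor genes on the list had a CAP-D3 peak, with 20 peaks between them. Among genes of similar length 77.5% had one, and the mean number of peaks was 3.33 per Toll receptor gene against 2.94 per gene of similar length. Toll receptors are transmembrane proteins with leucine-rich repeats. Tl acts in immunity and in dorsoventral patterning, while 18w, Toll-6 and Toll-7 are known for roles in embryonic tissue elongation or in the nervous system. Tl, the longest member with a span of 43363 bp, had 5 CAP-D3 peaks with scores of 3.93, 6.9, 10.03, 7.82 and 11.1 in order along 3R. A number of at least 5 was found at 68.8% of the 253 genes of similar length.

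In 18w, Toll-6 and Toll-7, which are much shorter than Tl, 4 CAP-D3 peaks each lay inside the gene. The scores in 18w were 5.45, 3.81, 6.3 and 8.73, and none reached 10. In Toll-6 they were 6.34, 8.86, 8.54 and 9.66, all below 10 as well. In Toll-7 they were 10.51, 8.2, 4.08 and 4.84, with the highest at 2R:19829102-19829488. The peaks of Toll-7 lay within 2030 bp, those of 18w within 3499 bp and those of Toll-6 within 4459 bp. For comparison, 4 or more peaks were found at 15.5% of genes of similar span for 18w, 21.0% for Toll-7 and 25.1% for Toll-6. The highest score was equalled or exceeded at 54.6%, 44.8% and 52.3% of the same genes.

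The 3 IgG peaks at the members lay in Toll-6, Toll-7 and Tl, each over a CAP-D3 peak. In Toll-6, the IgG peak (3L:15340693-15340982, score 9.57) shared all of its 290 bp with a CAP-D3 peak whose score was 8.54. In Toll-7, an IgG peak with a score of 6.29 shared 307 of its 316 bp with the CAP-D3 peak of score 10.51. In Tl, an IgG peak with a score of 5.06 lay wholly within the CAP-D3 peak of score 6.9. At these 3 positions the control antibody also gave a peak against input, and the part of nonspecific recovery in the CAP-D3 peaks was not tested. Without them, Toll-6 and Toll-7 kept 3 CAP-D3 peaks each and Tl kept 4. The peak of score 10.51 was the only one at Toll-7 with a score of at least 10. Without it, Toll-7 would not be among the 14 members that reach this score.

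The remaining Toll receptor genes had fewer peaks. Toll-4 had 1 peak inside its span with a score of 9.53. Toll-9 had none inside its span, and its 2 peaks in the margin, with scores of 10.07 and 12.65, lay 490 and 890 bp away in the gene inturned (in).

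**Figure D3:**
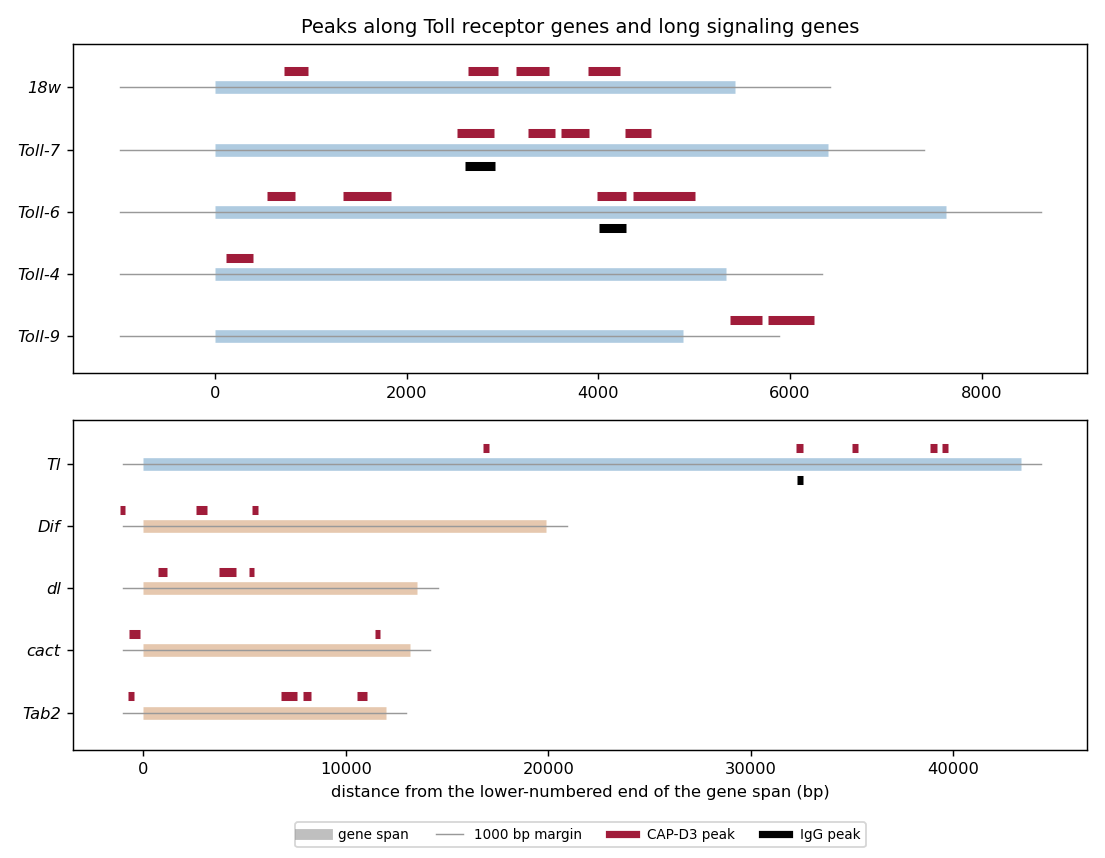
Position of CAP-D3 peaks (red, above) and IgG peaks (black, below) along 6 Toll receptor genes (blue) and 4 long signaling genes (brown), as distance in bp from the lower-numbered end of each gene span, with thin lines for the 1000 bp margin. The x axes of the 2 panels differ in scale. The 3 IgG peaks lie under CAP-D3 peaks of Toll-7, Toll-6 and Tl, and the peaks of Toll-9 lie outside its span.

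Among the 7 Imd signaling genes, 5 had a CAP-D3 peak, against 66.0% of genes of similar length. Rel had 1 peak inside its span, MACS peak 15406 (3R:9045774-9046184, score 12.56), which also lies in the overlapping gene Nmdmc. A highest score of at least 12.56 was found at 23.1% of genes of similar length. The peak at key (score 10.13) lay 220 bp outside the gene, in CG3589. Tab2 had 4 peaks with scores of 9.69, 7.61, 6.83 and 8.65, and the highest of these lay outside its span in mip40. At least 4 peaks were found at 34.6% of genes of similar length. The adaptor gene imd had a peak inside its span with a score of 7.07 and another in GstE9 with a score of 5.28. Dredd had 1 peak with a score of 6.3, which lay 397 bp away in Mybbp1A. Fadd and Tak1 had no peak, and their nearest CAP-D3 peaks were 1735 and 6366 bp away. Rel and key were thus the Imd signaling genes with a score of at least 10 (2 of 7, against 38.9% of genes of similar length), and of these Rel alone had it inside the gene.

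Among the 7 Toll signaling genes, 6 had a CAP-D3 peak, against 72.5% of genes of similar length. A score of 10 was reached at 4 of them (57.1%, 95% Wilson interval 25.0 to 84.2%), against 47.2%. The genes of the 2 NF-κB factors of this pathway, Dif and dl, are neighbors on 2L with 3668 bp between them. Each had 3 CAP-D3 peaks and no IgG peak. At least 3 CAP-D3 peaks were found at 57.3% of genes of similar length for Dif and at 50.4% for dl. In Dif the highest was MACS peak 3382 (2L:17418620-17418932, score 15.2), with others of 5.12 inside the gene and 5.33 in the margin. In dl the highest was MACS peak 3385 (2L:17442028-17442311, score 11.05), beside peaks of 7.34 and 6.76, all inside the gene. The inhibitor gene cact had 1 peak inside its span (2L:16324459-16324735, score 12.89) and 1 with a score of 7.23 outside it, in fzy. Scores at least as high as in Dif, dl and cact were found at 27.2%, 49.5% and 34.7% of genes of similar length.

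The ligand gene spz had the highest score of the signaling genes, 15.88, at a peak 885 bp outside its span in Nep5 (3R:27063751-27064105). A score at least as high was found at 10.1% of genes of similar length. The kinase gene pll had 1 peak with a score of 4.36, in TTLL6B. The adaptor gene Myd88 had 1 peak inside its span with a score of 3.02, the lowest of all members. The adaptor gene tub had none, with the nearest peak 2086 bp away. No IgG peak lay at any of the 14 signaling genes, a share of 0% (upper Wilson limit 21.5%), and 19.4% of genes of similar length had one.

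Of the 13 peptide genes, AttD, AttC and CecC had a CAP-D3 peak with a score of at least 10 (23.1%, 8.18 to 50.3%), against 16.8% of genes of similar length. The attacins, cecropins, diptericins and Drosocin (Dro) act mainly on Gram-negative bacteria, Defensin (Def) on Gram-positive bacteria, and Drosomycin (Drs) and Metchnikowin (Mtk) mainly on fungi. AttD, the attacin whose product lacks a signal for secretion, had the highest-scoring peak of the class, MACS peak 17320 (3R:17625669-17625919, score 18.74), which lay inside the gene. Of the CAP-D3 list, 3.41% had a higher score, and 2.06% of the 1504 genes of similar length had a peak with a score at least as high. This peak was also picked as the highest of its class, and such a choice by itself gives low shares. A second peak at AttD, with a score of 5.58, lay 441 bp outside its span. The nearest IgG peak was 2258 bp from AttD. AttC had 1 wide peak of 654 bp with a score of 10.71 (2R:13393917-13394570), which covered most of its span of 963 bp. CecC had 2 peaks in its margin and none inside, with scores of 12.49 at 159 bp (3R:30217097-30217348) and 4.35 at 329 bp. At least 2 peaks were found at 6.47% of the 510 genes of similar length for CecC and at 12.4% of those for AttD.

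Neighboring peptide genes shared 1 peak. AttA, AttB and Dro lie within a few kilobases on 2R. A peak with a score of 9.52 overlapped AttA and the margin of Dro, and no other peak was shared by 2 members. A separate peak with a score of 4.59 lay beside AttB in Rpn6. In the cecropin cluster on 3R, CecA1 and CecB had no peak, while CecC, 2686 bp from CecB, had 2. The nearest peak to CecB was the one with a score of 4.35 at CecC, 1960 bp away. DptA and DptB, 1130 bp apart, had none, and both lie in a stretch of 29061 bp of 2R without a CAP-D3 peak. Gaps of this length or longer held 3.61% of the protein-coding genes of 2R. Mtk had 1 peak with a score of 6.49, in Stacl.

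Drs, the antifungal peptide gene, had no peak in its window, although peaks with scores of 12.18 and 16.46 lay further out on either side. The nearest of these was the one with the score of 16.46, 2067 bp away, and its gap of 5015 bp was not unusual, since gaps at least as long held 40.2% of the protein-coding genes of 3L. The nearest peak to Def was 1557 bp away with a score of 5.44. With a margin of 2000 bp, 5 more members had a CAP-D3 peak, namely PGRP-SB1, PGRP-SC1a, Fadd, CecB and Def. Among members counted for margin peaks alone, the nearest peak was closest to the limit of 1000 bp at spz (885 bp) and PGRP-SD (729 bp).

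**Figure D4:**
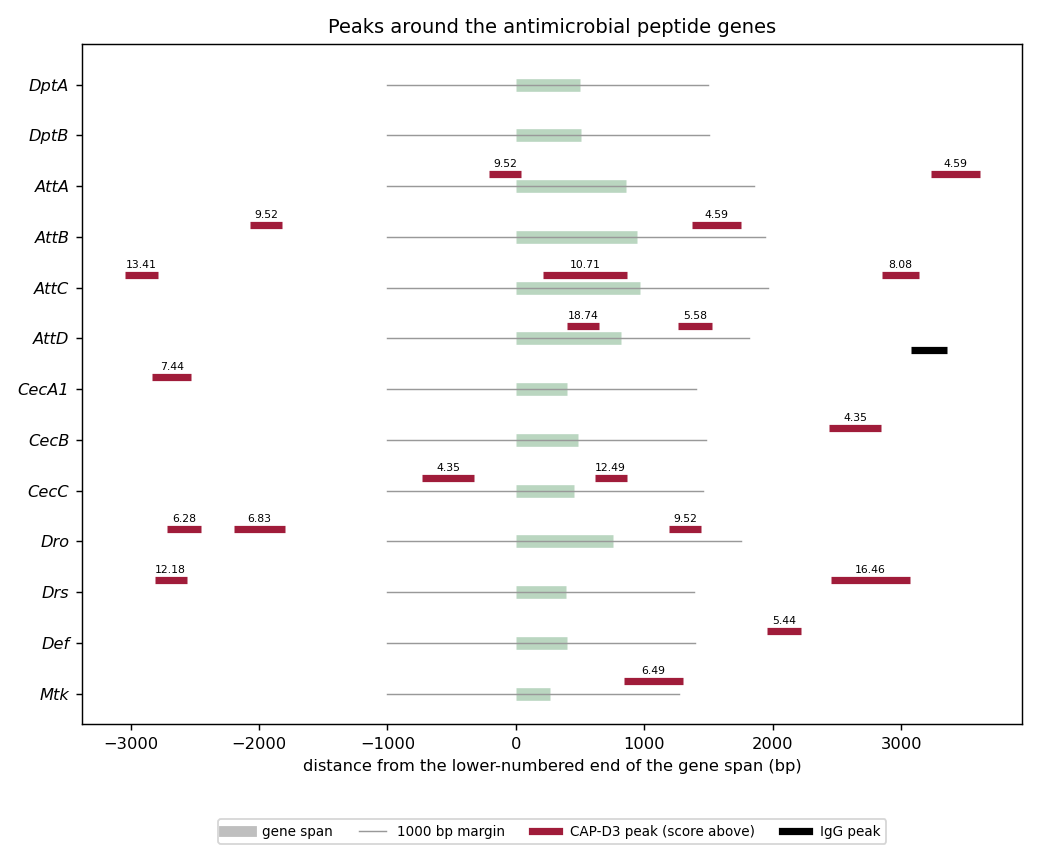
CAP-D3 peaks (red, with their MACS scores) and IgG peaks (black) within 3000 bp of the span (green) of each of the 13 peptide genes, as distance in bp from the lower-numbered end of the span, with thin lines for the 1000 bp margin. Peaks overlap the spans of AttA, AttC and AttD only, and the single IgG peak in the plotted range lies beyond the margin of AttD.

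Chromosomes and gene length moved with the presence of a peak. Of the 4 members on X, 1 (Dredd) had a CAP-D3 peak, and on the other chromosomes 27 of 40 had one. Among protein-coding genes the shares were 24.8% on X and 67.7% elsewhere. The IgG list was sparse on X as well, with 75 of its 3915 peaks there, beside 1021 of the 22108 CAP-D3 peaks. Few peaks on X were thus not particular to CAP-D3. When genes of similar length were taken from the same chromosome arm as the member, their mean share was 61.1% in place of 56.8%, and for the peptide genes it was 41.6% in place of 34.2%. Across the 44 members, Spearman's rho between span and number of CAP-D3 peaks was 0.548, and it was 0.475 across the 13922 protein-coding genes. Genes that lie together share peaks and gaps, so these points are not independent. Against this relation PGRP-LC and Tak1, with spans of 9527 and 9021 bp, were long members without a peak. Mtk, with a span of 268 bp, was the shortest member with a peak. Tak1 lies on X in a gap of 43844 bp between CAP-D3 peaks. Gaps of this length or longer held 59.5% of the protein-coding genes of X.

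**Figure D5:**
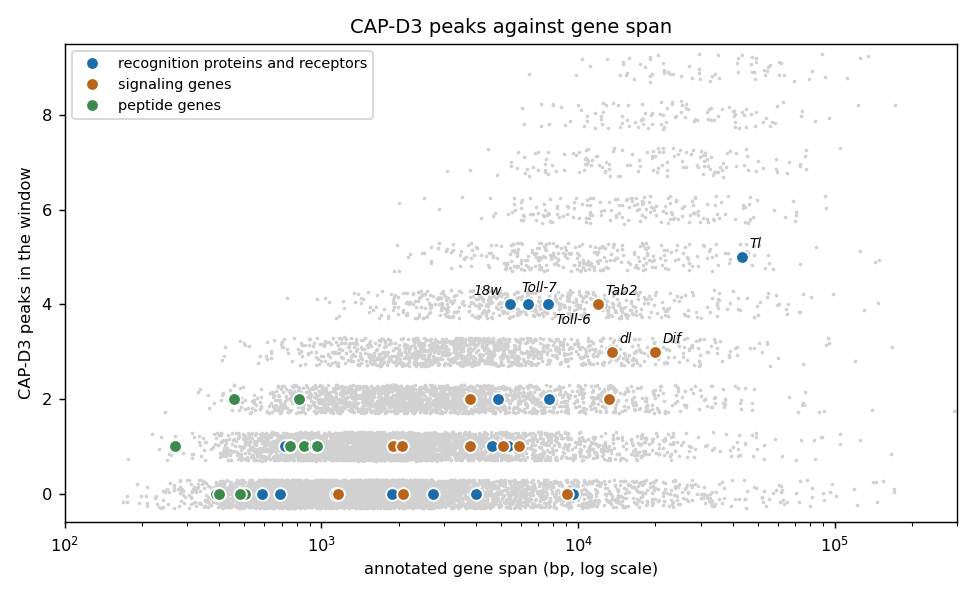
Number of CAP-D3 peaks in the window (y axis) against the annotated gene span (x axis, bp, log scale) for the 44 members (colored by class) and the protein-coding genes of the 6 chromosomes (gray, spread vertically for display). The 346 genes with more than 9 peaks are not drawn. Members with 3 or more peaks are named, and Tl has 5.

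Another 49 genes of the same pathways, which are not on the list of members, were counted in the same way. Of 15 other Imd pathway genes, 7 had a CAP-D3 peak, against 67.3% of genes of similar length, and 4 reached a score of 10, against 39.5%. The inhibitor of apoptosis gene Diap2, a ubiquitin ligase of the Imd pathway, had 3 peaks with scores of 17.34, 20.29 and 7.7. The Imd inhibitor gene pirk had 1 with a score of 10.87. The deubiquitinase gene scny (Usp36) had 5 peaks, 4 of them with a score of at least 10, and trbd, another deubiquitinase gene, had 1 with a score of 10.65. None of these 15 genes had an IgG peak, against 15.4% of genes of similar length.

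Of 19 other Toll pathway genes, 15 had a CAP-D3 peak, against 66.8% of genes of similar length, and 7 reached a score of 10, against 40.3%. An IgG peak was found at 6 of them, against 16.3% of genes of similar length. The highest score was 23.13 at spz5, a gene of the Spätzle family. The related gene spz4 had 3 CAP-D3 peaks with a highest score of 18.21 and 2 IgG peaks. The protease gene SPE, whose product cleaves Spätzle, had CAP-D3 peaks with scores of 18.05 and 10.48 and an IgG peak with a score of 5.06. The highest scores at the Spätzle family gene NT1, the Pellino gene Pli, the receptor gene Tollo and the protease gene ModSP were 13.42, 13.57, 11.81 and 11.29. With the receptors Tollo, Tehao and Toll-3 added to the 6 on the list, 8 of 9 Toll receptor genes had a CAP-D3 peak, against 76.0% of genes of similar length. An IgG peak was found at 5 of the 9 (55.6%, 95% Wilson interval 26.7 to 81.1%), against 24.7%. The IgG scores at Tollo and Tehao were 3.68 and 5.32, and both genes are also among the 6 counted above. This interval rests on 9 genes from lists chosen with earlier results of these data known, and it covers counting error only.

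Of 15 other peptide genes, among them CecA2, 6 drosomycin-like genes and 6 bomanins, 2 had a CAP-D3 peak, against 28.7% of genes of similar length. They were Drsl2, with a score of 11.02, and Listericin. Over both sets 9 of 28 peptide genes had one (32.1%, 95% Wilson interval 17.9 to 50.7%), against 31.3% of genes of similar length. Some peptide genes lie together and share a peak or a gap, so they are not independent, which the interval does not take into account.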

How the data were processed

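ChIP-seq was performed by the authors for CAP-D3 and IgG with input chromatin as background, and peaks were called with MACS. The submitters' processing notes name Bowtie 1.0.0 and MACS2 2.0.9. The genome build and the way in which experiments were combined are not given in the sources used here, and the labels give 2 experiments per antibody whereas the paper's methods give another number. Each deposited score is −log10 of a p-value or q-value calculated by the authors.

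Members and lists were chosen with earlier results of these data known. Gene spans were those of the Release 6 plus ISO1 MT assembly. Peak midpoints lay within 150 bp of a protein-coding gene end for 1.96% of CAP-D3 peaks as deposited and for 7.08 to 7.48% after shifts of 1000 to 5000 bp, so the positions relate to this annotation. Overlap of 1 bp with a span plus 1000 bp was counted (Python 3.11.15, pandas 2.3.3), and the counting was tested on simulated data. Members with a score of at least 10, with an IgG peak, or with the highest score of a class were described in full. Shares have 95% Wilson intervals (statsmodels 0.14.6). Alternatives were a score of at least 10 or 20, margins of 0 or 2000 bp, midpoints, X left out, and other definitions of similar length. Sequence was not analysed here, so the planned promoter motifs were not counted.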

Additional observations from a re-analysis of the deposited data

How the results depend on the processing

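No paired analysis was possible because the experiments of an antibody are merged in 1 list, and for the same reason no replicate could be left out. Depth is unknown, which limits any comparison of peak numbers between the lists. A higher threshold can only lower the counts. At a score of 10 or more, 16 CAP-D3 peaks lay at 14 members (5 receptors, 6 signaling genes and 3 peptide genes), with 0 IgG peaks at 0 members, and the shares of genes of similar length were 33.7% for CAP-D3 and 3.33% for IgG. At a score of 20 or more, there was 1 CAP-D3 peak at 1 member (1 receptor, 0 signaling and 0 peptide genes) and 0 IgG peaks at 0 members, against 2.67% and 0.0659% of genes of similar length. Without the margin, 18 members had a CAP-D3 peak (8 receptors, 7 signaling genes and 3 peptide genes) and 3 members an IgG peak. The shares of genes of similar length were then 43.0% for CAP-D3 and 11.4% for IgG. With a margin of 2000 bp these shares were 66.7% and 18.3%, without genes on X 62.8% and 17.6%, and on the same chromosome arm 61.1% and 16.3%. When the peak midpoint had to lie in the window, the CAP-D3 share was 54.4%.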
